A study of Homo sapiens with 12 samples.

Results

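The proteasome genes were followed through RNA sequencing of 2 human cancer cell lines grown in 2 ways. Members were all gene symbols made of PSM, a letter from A to G and digits, without pseudogenes and without names that hold a hyphen, and 48 of the 27968 gene symbols in the tables matched. They comprise 14 subunits of the 20S core, 17 subunits of the 19S cap, 5 immune subunits, 7 assembly chaperones, 3 other activators and inhibitors and 2 core subunits known for expression in a single tissue each. A549 is a line from lung cancer and MDA-MB-231 one from breast cancer. Each was grown untreated in DMEM with 10% FBS, either flat (2D) until about 80% confluent or for 4 days in Matrigel, a basement membrane extract (3D), with 3 libraries in each of the 4 groups. The series set out to profile genes that the extracellular matrix regulates in cancer cells. Only 1 line stands for each tissue, culture form goes together with the time and density at harvest, and the labels leave unsaid whether the 3 libraries of a group were separate cultures. P-values therefore measure no more than the spread among these libraries, which may be technical. Of the 48 members, 46 had enough counts to be tested. PSMA8, a testis form of an alpha subunit, had 0 counts in all 12 libraries, and PSMB11, the thymus form of a catalytic subunit, had a single count, in 1 library of MDA-MB-231 in 3D.

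The 26S proteasome is the main machine that breaks down ubiquitin-tagged proteins. Its core is a barrel of stacked rings, with gating alpha subunits outside and beta subunits inside, of which PSMB5, PSMB6 and PSMB7 carry the catalytic sites. The 19S cap binds, deubiquitinates and unfolds substrates, with a ring of ATPases (PSMC genes) and a base and lid of non-ATPase subunits (PSMD genes). Cells exposed to interferon gamma replace PSMB5, PSMB6 and PSMB7 by PSMB8, PSMB9 and PSMB10, and make PA28, the activator built from PSME1 and PSME2, which together favour peptides for MHC class I. RNA levels say nothing direct about assembled particles.

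Promoter letters are shown for the 3 members that shared one exact match to an interferon response element, and for PSMB9, the immune subunit that behaved differently in the 2 lines. Sequences are the 250 bases before the annotated start, from RefSeq on GRCh38.p14, written 5′ to 3′ on the strand of the gene. Capitals mark a match to the interferon-stimulated response element, searched as GAAA, any 2 bases and GAAA on either strand.
PSMB10 (chr16:67936851-67937100, minus strand): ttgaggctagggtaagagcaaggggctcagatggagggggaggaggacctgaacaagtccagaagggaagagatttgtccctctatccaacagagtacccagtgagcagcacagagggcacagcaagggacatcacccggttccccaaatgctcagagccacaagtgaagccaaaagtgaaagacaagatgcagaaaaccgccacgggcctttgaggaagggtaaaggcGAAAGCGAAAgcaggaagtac
PSME2 (chr14:24146611-24146860, minus strand): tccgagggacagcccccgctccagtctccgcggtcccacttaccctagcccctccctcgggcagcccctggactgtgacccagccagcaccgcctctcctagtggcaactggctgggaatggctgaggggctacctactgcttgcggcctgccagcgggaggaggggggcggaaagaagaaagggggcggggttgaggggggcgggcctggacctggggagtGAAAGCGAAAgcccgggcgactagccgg
PSMG4 (chr6:3258697-3258946, plus strand): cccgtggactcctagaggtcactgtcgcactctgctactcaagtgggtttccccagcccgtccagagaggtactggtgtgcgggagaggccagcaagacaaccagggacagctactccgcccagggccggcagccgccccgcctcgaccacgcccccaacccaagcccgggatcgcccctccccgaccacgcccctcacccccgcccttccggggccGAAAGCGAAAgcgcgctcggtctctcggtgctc
PSMB9 (chr6:32853942-32854191, plus strand): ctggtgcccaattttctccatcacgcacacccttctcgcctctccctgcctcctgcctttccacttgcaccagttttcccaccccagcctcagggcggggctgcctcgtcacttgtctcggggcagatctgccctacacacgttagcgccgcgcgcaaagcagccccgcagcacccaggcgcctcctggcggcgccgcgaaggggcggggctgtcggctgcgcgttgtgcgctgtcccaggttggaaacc
The match was GAAAGCGAAA in PSMB10, PSME2 and PSMG4. It lay 21 to 12 bases before the start in PSMB10, 28 to 19 in PSME2 and 33 to 24 in PSMG4, a chaperone of core assembly that is not counted as an immune subunit. The PSMB9 window held no match, which says only that these letters are not in it. Windows were found for 42 of the 48 members, 51 windows in all because some genes have several starts. The motif stood in 5 of these windows (PSMA4 and PSMB4 besides the 3 above), and in 2.81% of all 23949 windows of the same length. The gamma-activated site, TTCNNNGAA, stood in 7 member windows and in 6.1% of all windows. The members were PSMA2, PSMA8, PSMB5, PSMB8, PSMC4, PSMD3 and PSME3. The antioxidant response element TGACNNNGC, which NFE2L1 and its relatives bind, or its reverse complement GCNNNGTCA stood in 13 member windows and in 11.3% of all windows. The members were PSMA4, PSMB3, PSMB9, PSMC5, PSMD3, PSMD5, PSMD9, PSMD12, PSME1, PSME2, PSME4, PSMG1 and PSMG2. These matches are descriptions of letters, not sites of binding. PSMB9 shares its upstream region with TAP1, a peptide transporter read from the opposite strand, whose nearer start lay 488 bases from that of PSMB9.

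Total expected counts ran from 5609327 to 28171901 per library. In both lines the 3D libraries had shorter fragments, with group means of 179.6 bases in 2D and 137 in 3D for A549, and 212 and 184 for MDA-MB-231. Ribosomal RNA took 0.320 to 0.497% of counts in 2D and 3.59 to 16.6% in 3D for A549, against 1.49 to 1.53% and 4.75 to 7.30% in MDA-MB-231. The biological coefficient of variation was 0.180 among the A549 3D libraries and 0.0377 to 0.0563 in the other groups. The main fit shared its estimate of spread across all 4 groups. Its p-values and standard errors may therefore be too small for A549 3D and too large for the others. Calls in one line can also change with libraries of the other. Summed lung markers were at most 1.22 CPM (counts relative to library size, scaled by TMM) in A549, where NKX2-1 and SFTPA1 were at 0 in 2D. Breast markers summed to 45.7 to 52.5 in the flat MDA-MB-231 libraries against 70.8 to 76.8 in those of A549, so neither list marked its line. The 10 leukocyte markers, which count here because immune subunits are abundant in leukocytes, summed to 6.75 to 7.24 in 2D and 31.4 to 49.7 in 3D for A549. For MDA-MB-231 the sums were 194 to 219 in 2D and 397 to 423 in 3D. CD3E was at 0 in every group. How far fragment length, ribosomal RNA or these markers bear on the proteasome values below was not tested, and fewer cells of a type cannot be told apart from less RNA per cell.

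Culture in Matrigel did not move the proteasome genes as a block. In A549, 12 members rose and 17 fell in 3D, and of all tested genes 34.1% rose and 31.5% fell (65.6% called). In MDA-MB-231, 28 members rose and 10 fell, against 33.4% and 34.2% of all genes (67.6% called, edgeR quasi-likelihood test, Benjamini-Hochberg adjusted p under 0.05). The 14 core subunits had a median log2 fold change of -0.10 in A549 (3 rose, 4 fell) and 0.39 in MDA-MB-231 (11 rose, 3 fell). For the 17 cap subunits the medians were -0.25 (1 rose, 9 fell) and 0.06 (8 rose, 4 fell). The 5 immune subunits had medians of 1.03 (4 rose, 0 fell) and 0.86 (5 rose, 0 fell). The median over all tested genes was 0.03 in A549 and 0 in MDA-MB-231. With each line fitted alone, 9 members rose and 14 fell in A549, and 29 rose and 10 fell in MDA-MB-231. Of all genes in those fits, 4640 of 8760 called rose in A549 and 5487 of 10965 in MDA-MB-231. Deposited TPM also carries the larger share of small structural RNA in 3D. Its group mean was 33.8% of TPM in 2D and 49.5% in 3D for A549, but only 1.17% and 3.87% for MDA-MB-231. On the TPM scale the median of all genes was -0.38 in A549 and -0.25 in MDA-MB-231 (limma on log2(TPM + 1)). How far structural RNA moved these medians was not tested. On TPM the members split into 4 higher and 39 lower in A549 and 13 higher and 18 lower in MDA-MB-231. Of all 15304 genes on TPM, 10916 were called in A549 (2290 higher) and 10023 in MDA-MB-231 (2532 higher). There the A549 rises of PSME2, PSME3, PSMA6, PSMB1, PSMB3, PSMG4 and PSMF1 and the MDA-MB-231 rises of PSMA2, PSMA5, PSMA6, PSMB1, PSMB2 and PSMD2 had the opposite sign. The rises of PSMB8 in A549 (0.33) and of PSMA7, PSMB4, PSMB5, PSMB6, PSMB7, PSMC3, PSMC5, PSMD13 and PSME1 in MDA-MB-231 (0.07 to 0.26) kept their sign there and missed the threshold. Between the lines, 10 members rose in both, 5 fell in both, 7 fell in A549 and rose in MDA-MB-231, and 1 did the reverse. Among all genes 15.3% rose in both, 16.1% fell in both and 14.2% moved in opposite directions. The test of the difference between the 2 changes passed for 30 members, 5 with the higher change in A549 and 25 with the higher change in MDA-MB-231, against 29.3% and 26.7% of all genes (56.1% called). The 3 libraries of one culture lay wholly above or below those of the other for 27 of the 46 members in A549 and 40 in MDA-MB-231, as for 64.8% and 75.2% of all genes. PSMC2, an ATPase, and PSMG2, a core chaperone, passed in neither line.

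**Figure D1:**
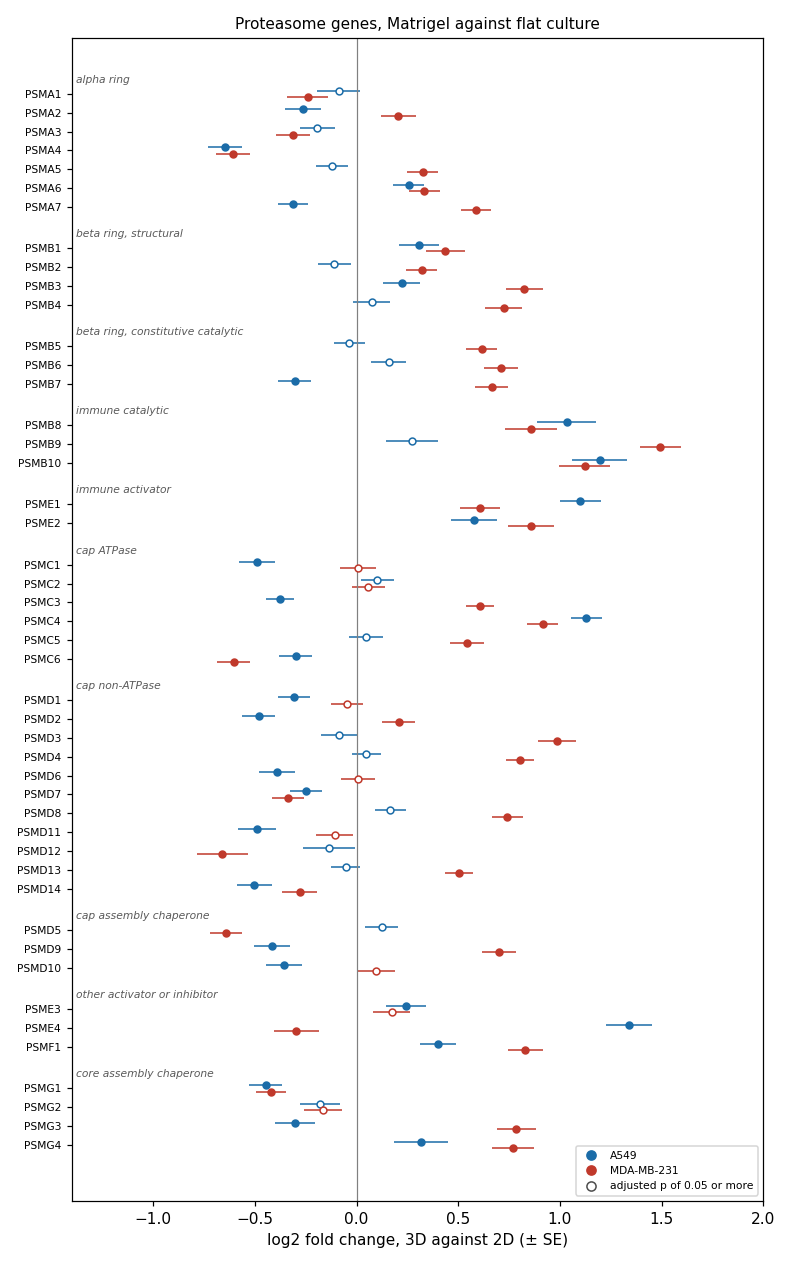
Log2 fold change in 3D against 2D with its standard error for each of the 46 tested members, grouped by role, in A549 (blue) and MDA-MB-231 (red). Filled points passed the test and open points did not. The immune subunits lie right of 0 in both lines, and most core and cap subunits lie further right in MDA-MB-231.

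The rises in MDA-MB-231 went along with base composition. Across the 46 members the Spearman correlation of the change with the GC content of the longest transcript was 0.79 in MDA-MB-231 and 0.31 in A549. Over all genes with a GC value it was 0.61 and 0.12, so a trend of the same sign ran through all genes, to which genes contribute without being independent replicates. Members that rose in MDA-MB-231 had a median GC content of 53.1% and those that fell 41.8%. All points share the same libraries. A further fit, added after the data had been seen, removed each library's trends in gene length and GC content. It left 21 members higher and 7 lower in MDA-MB-231, and 10 higher and 26 lower in A549. Of all 15304 genes in that fit, 8600 were called in MDA-MB-231 (4534 higher) and 10544 in A549 (5312 higher). In MDA-MB-231 the fit left 7 of 14 core subunits higher and 2 lower, and 2 of 5 immune subunits higher. In A549 it left 0 core subunits higher and 10 lower, with 4 immune subunits higher. Such a fit removes whatever runs with GC content, and a technical trend cannot be told apart from a response of GC-rich genes. The difference between the lines missed the threshold in this fit for PSMB6 (-0.16), PSMC5 (-0.22), PSMD8 (-0.15), PSMG4 (-0.19) and PSMD12 (-0.11), the last with the sign turned, and passed with the opposite sign for PSMC6 (-0.28). It passed for 9 members that had not passed before: PSMB8 (0.62), PSMB10 (0.62), PSMC4 (0.62), PSMD14 (-0.37), PSMD1 (-0.51), PSMA4 (-0.37), PSMA6 (-0.26), PSMA3 (-0.28) and PSMC2 (-0.46), the last 2 with the sign turned. Log2 fold changes from this fit are given below as trend-corrected, beside each member whose call within a line they change.

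**Figure D2:**
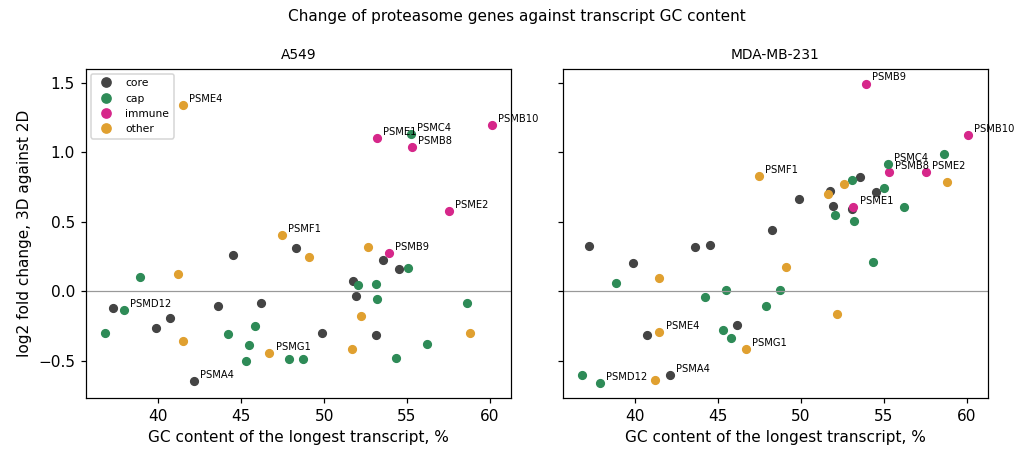
Log2 fold change in 3D against 2D (y axis) against the GC content of the longest transcript in percent (x axis), 1 point per tested member, for A549 (left) and MDA-MB-231 (right). In MDA-MB-231 the members climb with GC content, with a Spearman correlation of 0.79, while PSMA5, PSMB9 and PSMF1 lie above their neighbours.

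Calls that held under all alternative settings tried, the trend-corrected fit and the omission of each library included, were fewer. In A549 they were rises of PSMB10, PSMC4, PSME1 and PSME4 and falls of 12 members: PSMA4, PSMA7, PSMB7, PSMC1, PSMC3, PSMD2, PSMD6, PSMD9, PSMD10, PSMD11, PSMD14 and PSMG1. In MDA-MB-231 they were rises of 8 members (PSMB9, PSMB10, PSMC4, PSMD3, PSMD4, PSMD8, PSMD9 and PSMF1) and falls of 4 (PSMA4, PSMD7, PSMD14 and PSMG1). PSMB10 and PSMC4 thus rose, and PSMA4, PSMD14 and PSMG1 fell, in both lines under each setting. PSMD9 fell in A549 and rose in MDA-MB-231 under each setting. Leaving out 1 library also brought members past the threshold. Without A549 3D replicate 2, PSMA1, PSMA3 and PSMG2 fell in A549 (-0.22 to -0.26) and PSME3 rose in MDA-MB-231 (0.17). Without A549 3D replicate 3, PSMA5 fell in A549 (-0.20) and the difference for PSMD1 passed (-0.37). PSMB2 fell in A549 without A549 3D replicate 1 (-0.19), and without MDA-MB-231 3D replicate 1 PSMA3 fell in A549 (-0.22) and PSMG2 in MDA-MB-231 (-0.25).

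Of the immune catalytic subunits, PSMB10 and PSMB8 rose in both lines, while PSMB9 rose in MDA-MB-231 and did not pass in A549. PSMB10, which takes the place of PSMB7, stood at 10.6, 11.7 and 11.0 CPM in the A549 2D libraries and at 24.7, 19.9 and 29.2 in 3D. In MDA-MB-231 it stood at 12.03, 12.6 and 9.38 in 2D and 25.6, 23.5 and 24.9 in 3D. No 3D library overlapped a 2D library in either line. The log2 fold change was 1.195 ± 0.13 (standard error) in A549 and 1.12 ± 0.13 in MDA-MB-231, a 2.29-fold and 2.18-fold rise (edgeR adjusted p = 1.2e-06 and 1.3e-06). Trend-corrected, the changes were 0.85 and 0.22 (edgeR adjusted p = 6.1e-07 and 0.039). PSMB10 has the highest GC content of the tested members, 60.1%.

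PSMB8, which replaces PSMB5, measured 16.0, 16.2 and 15.3 CPM in 2D and 26.3, 25.2 and 41.8 in 3D for A549. Its levels in MDA-MB-231 were 48.6, 49.1 and 49.0 in 2D and 89.9, 88.1 and 87.9 in 3D. The third A549 3D library stood above the other 2, and all 3D libraries lay above those of 2D. The changes were 1.03 ± 0.14 in A549 and 0.86 ± 0.13 in MDA-MB-231 (edgeR adjusted p = 1.4e-05 and 2.1e-05), and trend-corrected 0.81 and 0.20 (edgeR adjusted p = 7.1e-06 and 0.073), so the call in MDA-MB-231 was lost there. The strand setting of the counting is not given in the sources used here, so reads of PSMB8 and of its antisense gene PSMB8-AS1 cannot be told apart. The same holds for PSMA3, PSMD6 and PSMG3.

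PSMB9, which replaces PSMB6, differed most between the lines among the immune subunits. It measured 7.30, 6.75 and 5.56 CPM in 2D and 7.40, 6.84 and 8.60 in 3D for A549, and the groups overlapped. In MDA-MB-231 it went from 12.2, 11.47 and 10.6 to 32.4, 32.0 and 32.2, with no overlap. The log2 fold change was 0.27 ± 0.13 in A549 (edgeR adjusted p = 0.075) and 1.49 ± 0.10 in MDA-MB-231, a 2.81-fold rise (edgeR adjusted p = 6.3e-09). The A549 change minus the MDA-MB-231 change was -1.22 ± 0.16 (edgeR adjusted p = 1.3e-05). In A549 the change passed without 2D replicate 1 (0.35) or without 3D replicate 2 (0.32), and with RLE (0.29) or upper-quartile scaling (0.30). The summed leukocyte markers given above were also higher in 3D in both lines, and their part in the immune subunits was not tested. Trend-corrected, the changes were -0.02 and 0.86, and the difference was -0.88 (edgeR adjusted p = 4.6e-05).

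TAP1, the neighbour across the shared upstream region, also rose in MDA-MB-231 and did not pass in A549. Its mean was 45.5 ± 2.12 CPM (SD, n = 3) in 2D and 40.4 ± 11.1 in 3D for A549. For MDA-MB-231 the means were 49.9 ± 0.518 and 117 ± 1.11. The log2 fold change was -0.12 ± 0.13 in A549 and 1.23 ± 0.12 in MDA-MB-231, with a difference of -1.35 ± 0.18 (edgeR adjusted p = 1.2e-05), trend-corrected -0.87. Without A549 3D replicate 3, TAP1 fell by 0.40 in A549 (edgeR adjusted p = 0.00073).

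PA28, the activator of the immune form, rose in both lines before correction. PSME1 measured 89.0, 85.9 and 82.8 CPM in A549 2D and 163, 168 and 219 in 3D, and in MDA-MB-231 149.9, 139 and 135 in 2D and 203, 221 and 221 in 3D. No libraries overlapped between cultures within a line. The change was 1.10 ± 0.10 in A549 and 0.61 ± 0.10 in MDA-MB-231 (edgeR adjusted p = 1.4e-07 and 5.1e-05). The rise was larger in A549, with a difference of 0.49 ± 0.14 (edgeR adjusted p = 0.0072). Trend-corrected, it was 0.83 in A549 and 0.00 in MDA-MB-231 (edgeR adjusted p = 3.1e-08 and 0.99).

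PSME2, the partner of PSME1 in the same ring, measured 89.7, 85.0 and 82.9 CPM in A549 2D and 111, 110.4 and 159 in 3D. In MDA-MB-231 it measured 111, 100.4 and 107 in 2D and 186, 199 and 192 in 3D. A single A549 3D library, the third, stood above the other 2. The changes were 0.58 ± 0.11 and 0.86 ± 0.11 (edgeR adjusted p = 3.8e-04 and 5.9e-06), and their difference did not pass (-0.28 ± 0.16, edgeR adjusted p = 0.15), except without A549 3D replicate 3 (-0.49, edgeR adjusted p = 0.00038). Trend-corrected, the changes were 0.20 and -0.01 (edgeR adjusted p = 0.042 and 0.95).

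**Figure D3:**
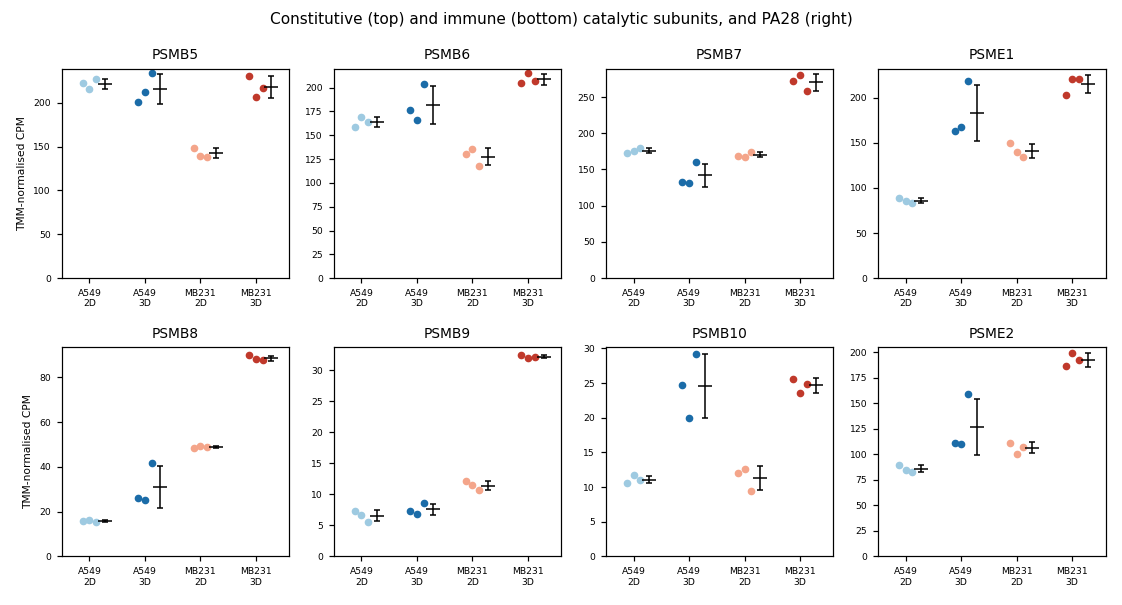
TMM-scaled CPM (linear axes from 0) in each library of the 4 groups for the constitutive catalytic subunits PSMB5, PSMB6 and PSMB7 (top), the immune catalytic subunits PSMB8, PSMB9 and PSMB10 (bottom) and the PA28 genes PSME1 and PSME2 (right). Points are libraries, and bars are the mean and SD of 3. PSMB10 is higher in 3D in both lines, while the PSMB9 libraries of the 2 cultures overlap in A549 and lie apart in MDA-MB-231.

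The balance between the 2 sets of catalytic subunits was read within each library, where scaling between libraries cancels. On the per-length scale of TPM, PSMB8, PSMB9 and PSMB10 made up 5.45%, 5.45% and 4.97% of the RNA of all 6 catalytic genes in the flat A549 libraries, and 9.58%, 8.75% and 10.9% in those from Matrigel. In MDA-MB-231 the shares were 12.5%, 12.5% and 12.3% in 2D and 15.9%, 15.4% and 16.0% in 3D. Every 3D library lay above every 2D library of its line, and every MDA-MB-231 library above every A549 library. The constitutive genes held the larger part in all 12. PSMB10 of the sum of PSMB10 and PSMB7 went from 5.99% ± 0.293 (SD, n = 3) to 14.9% ± 1.39 in A549 and from 6.30% ± 1.00 to 8.46% ± 0.565 in MDA-MB-231. PSMB9 of the sum of PSMB9 and PSMB6 was 3.01% ± 0.438 and 3.18% ± 0.0354 in A549, and 6.42% ± 0.291 and 10.7% ± 0.319 in MDA-MB-231. PSMB8 of the sum of PSMB8 and PSMB5 was 7.09% ± 0.378 and 12.9% ± 2.29 in A549, and 26.6% ± 0.677 and 30.5% ± 0.842 in MDA-MB-231. These shares were not corrected for GC content, which was 55.3%, 53.9% and 60.1% for PSMB8, PSMB9 and PSMB10 and 51.9%, 54.5% and 49.9% for PSMB5, PSMB6 and PSMB7.

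**Figure D4:**
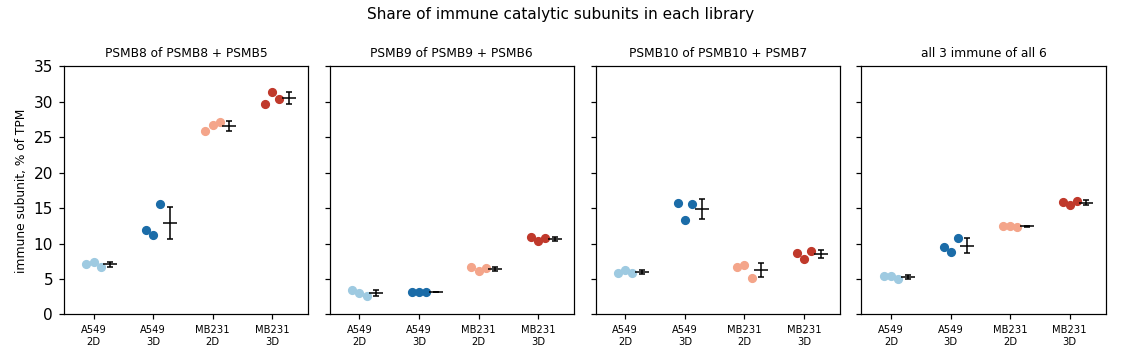
Share of the immune subunit in the TPM of each immune and constitutive pair, and of all 3 immune in all 6 catalytic subunits (right panel), in percent, per library. Bars are the mean and SD of 3 libraries. The shares of the right panel run from 4.97% (A549 in 2D) to 16.0% (MDA-MB-231 in 3D).

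The constitutive catalytic subunits rose in MDA-MB-231 but not in A549. PSMB7, the trypsin-like site, measured 173, 175 and 179 CPM in 2D and 133, 132 and 160.3 in 3D for A549, where it fell (-0.30 ± 0.08, edgeR adjusted p = 0.0037). In MDA-MB-231 it measured 169, 168 and 174 in 2D and 272, 280.4 and 258 in 3D, a rise of 0.66 ± 0.08. In each line the cultures did not overlap, and the difference between the changes was -0.97 ± 0.11 (edgeR adjusted p = 3.5e-06), trend-corrected -0.80. PSMB5, the chymotrypsin-like site and the main target of bortezomib, measured 222, 216 and 227 in 2D and 201, 212 and 234 in 3D for A549, which overlapped, and 149, 139.6 and 139 in 2D and 231.0, 206 and 217 in 3D for MDA-MB-231, which did not. Its difference was -0.65 ± 0.11 (edgeR adjusted p = 1.0e-04), trend-corrected -0.38. PSMB6, the caspase-like site, measured 159, 169 and 163 in 2D and 176, 165 and 204 in 3D for A549 and 131, 135 and 117 in 2D and 204, 215 and 207 in 3D for MDA-MB-231. Its rise of 0.71 ± 0.08 in MDA-MB-231 (edgeR adjusted p = 2.0e-06) came to -0.02 when trend-corrected, and in A549 it passed without 3D replicate 2 (0.22), with RLE scaling (0.19) and with DESeq2 (0.18). The trend-corrected values were 0.14 for PSMB5 and 0.25 for PSMB7 in MDA-MB-231. In A549 they were -0.23 for PSMB5 and -0.18 for PSMB6 (edgeR adjusted p = 0.0027 and 0.012), a fall of both in that fit, and -0.55 for PSMB7.

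In the rest of the core, PSMA4 fell in both lines. This alpha ring subunit measured 311, 307 and 288 CPM in A549 2D against 172, 201 and 206 in 3D, and 176, 169.6 and 176 against 122, 104 and 116 in MDA-MB-231. The changes were -0.64 ± 0.08 and -0.61 ± 0.08 (edgeR adjusted p = 6.4e-06 and 1.1e-05), trend-corrected -0.75 and -0.38, and no libraries overlapped. PSMA7 went opposite ways, from 250.4, 252 and 238 to 205, 195 and 195 in A549 and from 188, 167 and 180.1 to 286, 254 and 265 in MDA-MB-231. Its difference was -0.90 ± 0.10 (edgeR adjusted p = 3.0e-06), trend-corrected -0.57, although the rise in MDA-MB-231 itself (0.59) came to -0.00. PSMA6, another alpha subunit, measured 204, 199.7 and 199 in 2D and 221, 245 and 254 in 3D for A549 and 224, 207 and 228 in 2D and 295, 265 and 270.3 in 3D for MDA-MB-231, a rise in both lines (0.26 ± 0.08 and 0.33 ± 0.08), trend-corrected 0.05 and 0.31.

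Of the 4 beta subunits without a catalytic site, PSMB1 and PSMB3 rose in both lines. PSMB1 measured 125, 125 and 119 CPM in A549 2D and 133, 160.2 and 164 in 3D, and 207, 177 and 195 in 2D and 297, 239 and 249 in 3D for MDA-MB-231. The rises of 0.31 ± 0.10 and 0.44 ± 0.10 came to 0.03 and 0.09 when trend-corrected, and the A549 call was lost without A549 2D replicate 3 (0.27) or 3D replicate 3 (0.24). PSMB3 measured 167, 158 and 161 in 2D and 186, 165 and 213 in 3D for A549, which overlapped, and 95.0, 99.2 and 91.1 in 2D and 155, 181 and 168 in 3D for MDA-MB-231, which did not (0.22 ± 0.09 and 0.82 ± 0.09). Its A549 call was lost in 11 of the 12 omissions of a library, with values from 0.12 to 0.24, and trend-corrected PSMB3 was at -0.15 in A549 and 0.12 in MDA-MB-231. Among the alpha subunits not yet named, PSMA2 fell in A549 (-0.26) and rose in MDA-MB-231 (0.20), trend-corrected -0.23 and 0.68. The MDA-MB-231 call was lost in 7 of the 12 omissions of a library (0.16 to 0.20). PSMA1 and PSMA3 fell in MDA-MB-231 (-0.24 and -0.31), with -0.09 and -0.19 in A549, where neither passed. The PSMA1 call was lost in 8 of the 12 omissions (-0.19 to -0.26). Trend-corrected, both fell in A549 (-0.25 and -0.33), and in MDA-MB-231 PSMA1 was at -0.34 while PSMA3 lost its call (-0.05, edgeR adjusted p = 0.48). PSMA5 and the beta subunits PSMB2 and PSMB4 rose in MDA-MB-231 (0.33, 0.32 and 0.72) and did not pass in A549 (-0.12, -0.11 and 0.08). Trend-corrected, the MDA-MB-231 rises were 1.29 for PSMA5, the largest of the members in that fit, 0.79 for PSMB2 and 0.17 for PSMB4, and in A549 the values were 0.24, 0.01 and -0.22, of which PSMB4 passed as a fall (edgeR adjusted p = 0.0074). In contrast, log2(TPM + 1) put PSMA5 and PSMB2 both at -0.09 in MDA-MB-231.

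PSMC4, one of the 6 ATPases that unfold substrates, had the largest rise of the cap in A549 and rose in both lines. It measured 268, 243 and 263 CPM in A549 2D and 564, 521 and 609 in 3D, a 2.19-fold rise. In MDA-MB-231 it measured 107, 111 and 106 in 2D and 198, 209 and 203 in 3D, a 1.89-fold rise. The log2 changes were 1.13 ± 0.07 and 0.92 ± 0.08 (edgeR adjusted p = 3.5e-09 and 4.8e-08), and trend-corrected 1.07 and 0.44. Their difference (0.21) did not pass. Among the settings in which it did were the omission of A549 3D replicate 2 (0.27), RLE scaling (0.24), DESeq2 (0.23) and the trend-corrected fit (0.62, edgeR adjusted p = 6.1e-06). No other ATPase rose in A549, where 3 fell. PSMC3 measured 157, 166 and 163 in A549 2D and 122, 118 and 132 in 3D, and 202, 203 and 198 in 2D and 299.7, 307 and 310.1 in 3D for MDA-MB-231. It fell in A549 (-0.38 ± 0.07) and rose in MDA-MB-231 (0.61 ± 0.07), with a difference of -0.98 ± 0.10 (edgeR adjusted p = 5.6e-07). Trend-corrected, the MDA-MB-231 change was 0.02 and the difference -0.52. PSMC6 measured 152, 158 and 147 in 2D and 116, 140.4 and 117 in 3D for A549 and 212, 205 and 212 in 2D and 143, 139 and 132 in 3D for MDA-MB-231. It fell in both lines (-0.30 ± 0.08 and -0.60 ± 0.08), but with a GC content of 36.8% it was at -0.14 and 0.14 when trend-corrected. PSMC1 fell in A549 (-0.49) and was at 0.01 in MDA-MB-231, where it did not pass but was lower when trend-corrected (-0.18, edgeR adjusted p = 0.028). PSMC5 rose in MDA-MB-231 (0.55, trend-corrected 0.11, where the call was lost) and was at 0.05 in A549. PSMC2 was at 0.10 and 0.06, and trend-corrected it rose in both lines (0.33 and 0.79).

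Among the 11 non-ATPase subunits of the cap, 0 rose and 6 fell in A549, and 5 rose and 3 fell in MDA-MB-231. PSMD14, the deubiquitinase of the lid, fell in both lines. It measured 226, 229 and 216 CPM in A549 2D and 138, 171 and 165 in 3D, and 191, 186 and 202 in 2D and 171, 154 and 152 in 3D for MDA-MB-231. The changes were -0.50 ± 0.09 and -0.28 ± 0.08 (edgeR adjusted p = 9.4e-05 and 0.008), and their difference (-0.22) did not pass. Among the settings in which it did were the omission of A549 3D replicate 2 (-0.28), log2(TPM + 1) (-0.37) and the trend-corrected fit (-0.37, edgeR adjusted p = 0.0016). PSMD7, the partner of PSMD14, also fell in both (-0.25 and -0.34), with overlapping libraries in A549. PSMD4, a ubiquitin receptor, measured 170.2, 167 and 158 in 2D and 166, 162 and 183 in 3D for A549, which overlapped, and 110.3, 111 and 112 in 2D and 198, 190.0 and 193 in 3D for MDA-MB-231. It rose in MDA-MB-231 (0.80 ± 0.07, edgeR adjusted p = 7.9e-08), trend-corrected 0.30, while in A549 the trend-corrected value was -0.12 (edgeR adjusted p = 0.050). PSMD2, a large scaffold subunit, measured 378, 397 and 386 in 2D and 288, 240.3 and 302 in 3D for A549, a fall (-0.48 ± 0.08, edgeR adjusted p = 9.0e-05). In MDA-MB-231 it measured 1120.1, 1090.1 and 1119 in 2D and 1269.8, 1292 and 1281 in 3D, and its change of 0.21 ± 0.08 (edgeR adjusted p = 0.032) was -0.09 when trend-corrected. That call was also lost without any 1 of the 6 MDA-MB-231 libraries or without A549 2D replicate 2, with values from 0.19 to 0.22. The scaffold subunit PSMD1 and the lid subunits PSMD6 and PSMD11 fell in A549 (-0.31, -0.39 and -0.49), with -0.04, 0.01 and -0.11 in MDA-MB-231, where none of the 3 passed. Trend-corrected, PSMD1 rose in MDA-MB-231 (0.33, edgeR adjusted p = 2.7e-04) and was at -0.18 in A549. The lid subunits PSMD3, PSMD8 and PSMD13 rose in MDA-MB-231 (0.99, 0.74 and 0.50), with -0.08, 0.16 and -0.05 in A549, where none passed. Trend-corrected, the MDA-MB-231 values were 0.42, 0.19 and 0.10, with the call of PSMD13 lost, and in A549 PSMD3 and PSMD13 fell (-0.14 and -0.15). PSMD8 passed in A549 without 3D replicate 1 or 2 of that line (0.18 to 0.20). PSMD12, a lid subunit, fell in MDA-MB-231 (-0.66, edgeR adjusted p = 2.1e-04) from 186, 173 and 204 to 139, 108 and 109.8, but it has a GC content of 37.9% and trend-corrected it rose (0.27, edgeR adjusted p = 0.0097). In A549, PSMD12 was at -0.14, trend-corrected 0.15, without passing.

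PSME4, which encodes the nuclear activator PA200, had the largest difference between the 3D changes of the lines among all members. It measured 63.0, 59.6 and 60.3 CPM in 2D and 191, 137 and 135 in 3D for A549, a 2.53-fold rise (1.34 ± 0.11, edgeR adjusted p = 6.3e-08). In MDA-MB-231 it measured 178, 188 and 195 in 2D and 165, 148 and 144 in 3D (-0.30 ± 0.11, edgeR adjusted p = 0.026). The A549 3D libraries thus overlapped those of MDA-MB-231 3D, and the difference between the changes was 1.63 ± 0.16 (edgeR adjusted p = 5.1e-07). Trend-corrected, PSME4 was at 1.36 in A549 and, with the sign turned, at 0.30 in MDA-MB-231, with a difference of 1.06 (edgeR adjusted p = 9.6e-06). The fall in MDA-MB-231 also missed the threshold without 2D replicate 2 or 3 or 3D replicate 2 or 3 of that line, with values from -0.26 to -0.29. PSMF1, known as the inhibitor PI31, rose in both lines (0.40 ± 0.09 and 0.83 ± 0.09, edgeR adjusted p = 7.8e-04 and 4.8e-07). Its libraries were 102, 92.2 and 95.5 in 2D and 134, 112 and 135 in 3D for A549, and 101, 106 and 92.9 in 2D and 168, 184 and 182 in 3D for MDA-MB-231. Trend-corrected, the rises were 0.26 and 0.92. PSME3, a nuclear relative of PA28, rose in A549 (0.24), where the libraries overlapped, and did not pass in MDA-MB-231 (0.17). The A549 call was lost in 10 of the 12 omissions of a library (0.14 to 0.24). Trend-corrected, PSME3 rose in both lines (0.36 and 0.20, edgeR adjusted p = 5.2e-04 and 0.022).

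Of the 7 assembly chaperones, PSMD9 and PSMG3 went opposite ways in the 2 lines. PSMD9, a chaperone of cap assembly, measured 72.6, 71.5 and 74.4 CPM in A549 2D and 51.0, 48.4 and 61.9 in 3D, and 69.9, 67.1 and 65.7 in 2D and 109.7, 105 and 115 in 3D for MDA-MB-231. It fell in A549 (-0.42 ± 0.09) and rose in MDA-MB-231 (0.70 ± 0.08), a difference of -1.12 ± 0.12 (edgeR adjusted p = 1.8e-06), trend-corrected -0.89. PSMD5, another cap chaperone, fell in MDA-MB-231 from 113, 121 and 123 to 81.8, 74.3 and 72.5 (-0.64 ± 0.08, edgeR adjusted p = 3.4e-06), but trend-corrected it was at -0.02. In A549 it measured 72.9, 71.5 and 67.8 in 2D and 83.7, 77.2 and 71.1 in 3D and did not pass (0.12), but trend-corrected it rose (0.33, edgeR adjusted p = 4.2e-04). PSMD10, known as gankyrin, fell in A549 (-0.36) and was at 0.10 in MDA-MB-231, where it rose when trend-corrected (0.46). Of the core chaperones, PSMG1 fell in both lines, from 40.4, 39.7 and 36.8 to 26.5, 28.1 and 30.5 in A549 and from 79.3, 80.3 and 83.0 to 63.1, 58.9 and 59.7 in MDA-MB-231 (-0.45 ± 0.08 and -0.42 ± 0.07, edgeR adjusted p = 1.8e-04 and 1.2e-04). Its dimer partner PSMG2 was at -0.18 and -0.16, without passing, but trend-corrected it fell in both (-0.43 and -0.68). PSMG3 measured 34.0, 35.7 and 34.6 in 2D and 30.7, 28.5 and 26.2 in 3D for A549 and 19.7, 17.4 and 17.4 in 2D and 35.2, 30.04 and 29.2 in 3D for MDA-MB-231. It fell in A549 (-0.30) and rose in MDA-MB-231 (0.79), trend-corrected -0.71 and -0.12, the latter without passing. The A549 call was lost without 3D replicate 3 (-0.23). PSMG4, the partner of PSMG3 and the bearer of the interferon element printed above, rose in MDA-MB-231 from 11.48, 9.76 and 9.98 to 17.8, 17.98 and 17.5 (0.77), trend-corrected 0.14. In A549 it measured 6.03, 5.53 and 4.55 in 2D and 6.27, 6.64 and 6.94 in 3D (0.32, edgeR adjusted p = 0.047), a call that was lost in 10 of the 12 omissions of a library (0.20 to 0.33) and when trend-corrected (-0.06).

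**Figure D5:**
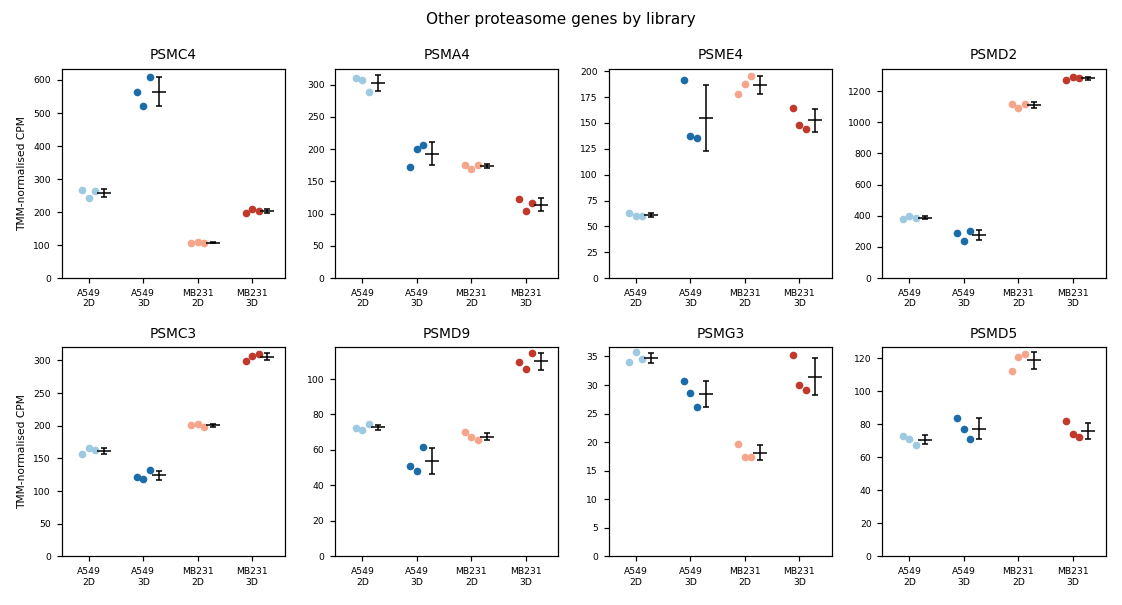
TMM-scaled CPM (linear axes from 0) in each library of the 4 groups for 8 further members. Points are libraries, and bars are the mean and SD of 3. PSMC4 is higher and PSMA4 lower in 3D in both lines, PSME4 is higher in 3D for A549 and lower in 3D for MDA-MB-231, and PSMD2 is highest in MDA-MB-231 in both cultures.

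The lines also differed within each culture. Library make-up differed with the line as well. Small structural RNA held a group mean of 33.8% of TPM in A549 2D and 49.5% in 3D. In MDA-MB-231 it held 1.17% and 3.87%. Its part in the differences between lines was not tested, and make-up cannot be told apart from line here. In 2D, 15 members were higher in A549 and 24 higher in MDA-MB-231, against 42.8% and 38.8% of all genes (81.6% called). In 3D the counts were 5 and 28, against 43.9% and 39.2% (83% called). On log2(TPM + 1) they were 2 and 39 in 2D and 1 and 43 in 3D. All genes tilted the same way on that scale. Of 15304 genes, 12668 were called in 2D (3181 higher in A549) and 13103 in 3D (3543 higher in A549). PSMD2 and PSMB2 stood higher in MDA-MB-231, with log2 differences (A549 minus MDA-MB-231) of -1.52 ± 0.08 and -1.45 ± 0.08 in 2D and -2.21 ± 0.08 and -1.88 ± 0.08 in 3D. PSMB2 measured 95.4 ± 3.20 CPM (SD, n = 3) in the flat A549 libraries and 260.2 ± 7.75 in the flat MDA-MB-231 libraries. PSMC4 stood higher in A549 in both cultures (1.26 ± 0.08 and 1.48 ± 0.08), and so did PSMD10 (1.24 ± 0.09 and 0.79 ± 0.09) and PSMA4 (0.80 ± 0.08 and 0.76 ± 0.09). PSMB8 was lower in A549 in both (-1.62 ± 0.14 and -1.45 ± 0.14), while PSMB10 did not differ past the threshold in either (-0.03 ± 0.13 and 0.05 ± 0.13). PSME4 was lower in A549 in 2D (-1.62 ± 0.11) and at 0.02 ± 0.11 in 3D. On the per-length scale, the cap subunits summed to 0.711 ± 0.00380 of the TPM of the core in A549 2D and 0.733 ± 0.0296 in 3D (SD, n = 3). In MDA-MB-231 the ratios were 0.898 ± 0.00409 and 0.834 ± 0.0248. The libraries of the lines did not overlap for 43 of the 46 members in 2D and 31 in 3D, beside 87% and 81% of all genes. Within the core, PSMB2 had the lowest TPM in every A549 library and PSMA5 in every MDA-MB-231 library.

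Genes that act with the proteasome without a PSM symbol were read from lists. Every list count here and below stands beside the shares of all tested genes. In A549 34.1% rose and 31.5% fell, and in MDA-MB-231 33.4% rose and 34.2% fell. Many of the list counts lie near these shares. Of 12 partners of the 26S particle, 4 rose and 3 fell in A549, and 3 rose and 7 fell in MDA-MB-231. POMP, which completes the assembly of the core, had a mean of 90.9 ± 1.40 CPM in A549 2D and 91.7 ± 13.5 in 3D (SD, n = 3). In MDA-MB-231 it went from 164 ± 6.63 to 90.0 ± 17.1 (-0.87 ± 0.12, edgeR adjusted p = 7.4e-06), trend-corrected -0.00, where A549 was at 0.21 (edgeR adjusted p = 0.044). PAAF1, a chaperone of cap ATPases, rose in A549 (0.81), and UBE3C, a ubiquitin ligase of the particle, fell there (-0.58). UCHL5, a deubiquitinase of the cap, fell in both lines (-0.89 and -1.17). USP14, the other deubiquitinase bound to the cap, rose in A549 (0.65) and fell in MDA-MB-231 (-0.59), and UBLCP1, a phosphatase of the cap, did the same (difference 1.60 ± 0.18). The receptor ADRM1 fell in A549 (-0.28) and rose in MDA-MB-231 (0.67).

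Of 11 genes around NFE2L1, the transcription factor that induces proteasome genes when the proteasome is inhibited, 3 rose and 3 fell in A549, and 5 rose and 1 fell in MDA-MB-231. NFE2L1 itself had a mean of 205 ± 4.41 CPM in A549 2D and 150.0 ± 38.8 in 3D, a fall (-0.44 ± 0.12, edgeR adjusted p = 0.006). In MDA-MB-231 it went from 411 ± 18.04 to 542 ± 6.30 (0.40 ± 0.12, edgeR adjusted p = 0.0087), a call lost when trend-corrected (0.14, edgeR adjusted p = 0.19), and the difference was -0.84 ± 0.17 (edgeR adjusted p = 7.5e-04), trend-corrected -0.53. MAFK, a small partner of this family, fell by 2.77 on the log2 scale in A549 (edgeR adjusted p = 8.9e-12). MAFG fell there too (-0.71), while MAFF rose in MDA-MB-231 (0.79). NFE2L2, a relative of NFE2L1 that governs the oxidative stress response, rose in A549 (0.54) and fell in MDA-MB-231 (-0.56), where KEAP1, its inhibitor, rose (0.54).

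Of 6 genes for ubiquitin and its activating enzymes, 3 rose and 1 fell in A549, and 5 rose and 1 fell in MDA-MB-231. UBA6, the alternative activating enzyme, fell in both (-0.68 and -1.37). UBA1, the main activating enzyme, rose in MDA-MB-231 (1.01). UBB rose in A549 (0.43), with the reservation that ubiquitin genes repeat the same coding unit. Of 15 genes for p97 and its ubiquitin shuttles, 4 rose and 3 fell in A549, and 9 rose and 5 fell in MDA-MB-231. VCP, which encodes p97, rose in MDA-MB-231 (0.77) and was at 0.09 in A549. The p97 cofactor UBXN6 rose in both (0.74 and 1.28), UBXN1 rose in A549 (0.48), UBXN4 fell in MDA-MB-231 (-1.03), and RAD23B, a shuttle to the cap, fell in both (-0.78 and -0.69). The cofactors NPLOC4 and UBXN7 differed between the lines by -1.14 and 0.89. Of all genes outside the PSM family, POMP, NFE2L1, TAP1 and NLRC5 were run through the alternative settings.

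Downstream of the immune subunits, 9 of 15 genes of the class I peptide pathway rose and 3 fell in A549, and 10 rose and 2 fell in MDA-MB-231. HLA-C rose in both lines (1.501 and 2.21), with the reservation that reads of HLA genes can be split among close copies. HLA-E rose in both as well (0.76 and 1.36). For CALR, a chaperone of class I folding, the difference between the lines was -1.11. Of 13 factors of interferon response that act on the immune subunits, 6 rose and 1 fell in A549, and 5 rose and 3 fell in MDA-MB-231. IRF1, which binds interferon response elements, rose in both (0.69 ± 0.09 and 0.69 ± 0.08, difference 0.01 ± 0.12). JAK2, a kinase of the interferon gamma receptor, fell in MDA-MB-231 (-1.60), and JAK1, the other kinase of that receptor, fell in A549 (-1.10). The receptor chain IFNGR1 and IRF9 rose in A549 (1.28 and 2.40), and RELA rose in MDA-MB-231 (0.99). NLRC5, the activator of class I genes, went from 5.40 ± 0.434 to 5.49 ± 3.601 CPM in A549 and from 9.77 ± 1.03 to 22.7 ± 0.749 in MDA-MB-231 (SD, n = 3). It rose in MDA-MB-231 (1.21 ± 0.20, edgeR adjusted p = 6.8e-05), trend-corrected 0.80. The difference between lines was -0.93 ± 0.33 (edgeR adjusted p = 0.027) and missed the threshold without A549 2D replicate 3, MDA-MB-231 2D replicate 1 or 3 or 3D replicate 2 (-0.87 to -0.92). In A549, NLRC5 passed without 3D replicate 2 (0.54).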

How the data were processed

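Per the labels' protocols, TRIZOL was used for extraction, and a kit for stranded total RNA that depletes ribosomal RNA was used for the 12 libraries. The authors deposited gene tables of RSEM with expected counts and TPM, and genome build hg19 is given per the submitters' processing notes. No label names an aligner, a version or the strand setting (not given in the sources used here). RSEM shares reads among similar copies, so members with processed pseudogenes are less certain.

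Expected counts were rounded and tested with edgeR 4.0.16 in R 4.3.3 (quasi-likelihood test, 4 group means over 12 libraries, filterByExpr, TMM), which kept 15304 of 27968 genes. P-values were adjusted by Benjamini-Hochberg over those genes, with a threshold of 0.05. CPM are TMM-scaled, and CPM and differences between lines are not corrected for gene length. Immune shares were taken from the deposited TPM and not tested. The scripts were run on simulated data in which all groups had the same spread. The wider spread among the A549 3D libraries was thus not part of that check. Replicates of a group differed by a chi-square of 2.71 to 163 per degree of freedom, so none was a copy.

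Alternatives were RLE or upper-quartile scaling, DESeq2 1.42.0, limma 3.58.1 on log2(TPM + 1) or log2(TPM + 0.1), other filters, each line alone, structural RNA removed, library trends in gene length removed, the replicate block and each library left out. Removing length and GC trends together (lowess span 0.3, 10 rounds, GC of the longest GENCODE 29 transcript, known for 96.5% of genes) and a scaled TPM without structural RNA were added after seeing the data. Members and lists were chosen with earlier results of these data known. Per-library values are given for the immune and catalytic genes, for the member with the smallest p per role, direction and comparison, and for members set beside them; from other lists, up to 3 genes with the smallest p per comparison and POMP, NFE2L1, TAP1 and NLRC5 are named, except a few genes that are not reported here. All remaining members are given by their log2 change.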

Additional observations from a re-analysis of the deposited data

Results flagged for a closer look

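For 30 members the 3D change differed between the lines in a direct test of the difference (edgeR quasi-likelihood test, adjusted p under 0.05). Values are the A549 change minus the MDA-MB-231 change on the log2 scale, each from 3 libraries per group. The change was higher in A549 for 5 members: PSME4 (1.63), PSMD5 (0.77), PSMD12 (0.52), PSME1 (0.49) and PSMC6 (0.30). It was higher in MDA-MB-231 for the immune subunit PSMB9 (-1.22) and for 9 subunits of the core: PSMB7 (-0.97), PSMA7 (-0.90), PSMB5 (-0.65), PSMB4 (-0.65), PSMB3 (-0.60), PSMB6 (-0.55), PSMA2 (-0.47), PSMA5 (-0.45) and PSMB2 (-0.43). The same held for 3 ATPases of the cap, PSMC3 (-0.98), PSMC5 (-0.50) and PSMC1 (-0.50), and for 7 non-ATPase subunits, PSMD3 (-1.07), PSMD4 (-0.75), PSMD2 (-0.69), PSMD8 (-0.58), PSMD13 (-0.56), PSMD6 (-0.40) and PSMD11 (-0.38). The remaining 5 were PSMD9 (-1.12), PSMG3 (-1.09), PSMD10 (-0.45), PSMG4 (-0.45) and PSMF1 (-0.43). Of these 30, PSMD5 and PSME4 on the first side and 18 on the second kept their call under all alternatives tried. The difference for PSMC6 missed the threshold in 6 of 12 omissions of a library (0.27 to 0.30), that for PSMD12 in 5 (0.42 to 0.48) and that for PSMG4 in 6 (-0.37 to -0.45). With the trends in gene length and GC content removed, it was -0.28 for PSMC6 and -0.11 for PSMD12. GC content moved with this difference, at a median of 41.2% for the 5 members on the first side and 52.1% for the 25 on the second.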

How the results depend on the processing

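Scaling by RLE or upper quartile, DESeq2, the other filters, each line fitted alone and the removal of structural RNA genes reversed no result; the values that turned sign came from TPM and from the length and GC trends, and the cause was not tested. With limma on log2(TPM + 1), the members were 4 higher and 39 lower in A549, 13 and 18 in MDA-MB-231 and 2 and 27 in the difference between lines. Between the lines the members were 2 and 39 in 2D and 1 and 43 in 3D, and the pseudocount 0.1 gave the same counts of members. Of all 15304 genes on log2(TPM + 1), 10916 were called in A549 (2290 higher) and 10023 in MDA-MB-231 (2532 higher). For the difference 9432 were called (4372 higher). Between the lines 12668 were called in 2D (3181 higher in A549) and 13103 in 3D (3543 higher in A549). The median over all genes on log2(TPM + 1) was -0.38 in A549 and -0.25 in MDA-MB-231. Between the lines it was -0.56 in 2D and -0.64 in 3D. The log2 changes that reversed on log2(TPM + 1) were, in A549, PSMB9 -0.34, PSME2 -0.085, PSMB6 -0.48, PSMA6 -0.35, PSMB1 -0.32, PSMG4 -0.28, PSMB3 -0.43, PSMD4 -0.54, PSMD5 -0.41, PSMF1 -0.15, PSMB4 -0.55, PSMC2 -0.50, PSMC5 -0.55, PSMD8 -0.42 and PSME3 -0.32, and in MDA-MB-231 PSMA6 -0.12, PSMB1 -0.026, PSMD2 -0.22, NFE2L1 -0.015, PSMA2 -0.23, PSMA5 -0.089, PSMB2 -0.093, PSMC1 -0.43, PSMC2 -0.73, PSMD6 -0.46 and PSMD10 -0.33. With the pseudocount 0.1 they were PSMB9 -0.38, PSME2 -0.086, PSMB6 -0.48, PSMA6 -0.35, PSMB1 -0.32, PSMG4 -0.31, PSMB3 -0.43, PSMD4 -0.54, PSMD5 -0.43, PSMF1 -0.16, PSMB4 -0.56, PSMC2 -0.51, PSMC5 -0.55, PSMD8 -0.42 and PSME3 -0.33 in A549 and PSMA6 -0.12, PSMB1 -0.026, PSMD2 -0.22, NFE2L1 -0.015, PSMA2 -0.23, PSMA5 -0.090, PSMB2 -0.093, PSMC1 -0.43, PSMC2 -0.73, PSMD6 -0.46 and PSMD10 -0.33 in MDA-MB-231. Once structural RNA was removed from TPM and TMM applied, an alternative chosen after seeing the data, only PSMC2 reversed (-0.33 in MDA-MB-231). With the length trend removed, PSMG4 -0.034, PSMB3 -0.14 and PSMB4 -0.22 reversed in A549 and PSMA6 -0.083, PSMB1 -0.027, PSME4 0.049, PSMA2 -0.092, PSMC1 -0.26 and PSMD6 -0.31 in MDA-MB-231. With the length and GC trends removed, 26 members were lower in A549, and the reversed values were PSMB6 -0.18, PSMG4 -0.058, PSMB3 -0.15, PSMD4 -0.12, POMP 0.21 and PSMB4 -0.22 in A549, PSME2 -0.010, PSMB6 -0.016, PSMD2 -0.090, PSME4 0.30, PSMA7 -0.0037, PSMC6 0.14, PSMD12 0.27, PSMG3 -0.12, PSMC1 -0.18 and PSMD1 0.33 in MDA-MB-231 and PSMC6 -0.28, PSMD12 -0.11, PSMA3 -0.28 and PSMC2 -0.46 for the difference between lines. Leaving out each library gave 8 to 14 members higher and 17 to 20 lower in A549, and 26 to 29 and 8 to 11 in MDA-MB-231. The difference had 3 to 6 and 24 to 27. Between lines the counts were 14 to 15 and 22 to 25 in 2D, and 3 to 6 and 26 to 29 in 3D. Over all genes, the omissions called 9319 to 10631 in A549 (4825 to 5609 higher) and 9552 to 10959 in MDA-MB-231 (4725 to 5445 higher). For the difference they called 7937 to 8967 genes (4120 to 4695 higher). Between lines they called 12087 to 13104 genes in 2D (6339 to 6872 higher) and 12461 to 13034 in 3D (6562 to 6964 higher). The difference had 3 members higher without A549 2D replicate 3, MDA-MB-231 2D replicate 3 or MDA-MB-231 3D replicate 2 or 3. The lines in 3D had 3 members higher without A549 3D replicate 3 or MDA-MB-231 3D replicate 1. Immune shares ranged over 5.21% to 5.45% in A549 2D, 9.17% to 10.22% in A549 3D, 12.4% to 12.5% in MDA-MB-231 2D and 15.6% to 16.0% in MDA-MB-231 3D. Samples with the same replicate number did not deviate together (r from -0.0729 to 0.0972), nor did every sample correlate best with its own number. Deviations from means of 3 libraries cannot exclude cultures paired by number. With the replicate number as a block, 10 members were higher and 17 lower in A549 and 26 and 9 in MDA-MB-231, with 5 and 25 in the difference. Of all 15304 genes in that fit, 9667 were called in A549 (5007 higher) and 10077 in MDA-MB-231 (4977 higher). For the difference 8272 were called (4321 higher). The calls of PSMG4 (edgeR adjusted p = 0.053) and PSMB3 (0.067) in A549 and of PSMA1 (0.059), PSMA2 (0.064) and PSMD2 (0.050) in MDA-MB-231 were lost, and the other calls of members held. In the shallowest library, of 5609327 counts, low genes such as PSMG4 were the least precisely measured.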
